A study of Mus musculus with 12 samples.

Results

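The measurements concern 4 mature miRNAs that mark the oligodendrocyte lineage, mmu-miR-219a-5p, mmu-miR-219a-2-3p, mmu-miR-338-3p and mmu-miR-338-5p, in the prefrontal cortex (PFC) of mice given cocaine, l-methionine (MET) or both. They were taken by name, and they are 4 of 1374 mature miRNAs listed with a count in at least 1 of 12 small RNA libraries (1422 when predicted miRNAs are added). All animals were adult male C57BL/6 mice that went through conditioned place preference (CPP) training, in which a drug is paired with 1 side of a box. In the SS group the mice received saline in place of both agents, in the CS group cocaine and saline, in the MS group MET and saline, and in the MC group MET and cocaine. Cocaine was given at 20 mg/kg over 8 conditioning days, and MET, the methyl donor precursor, under the skin in 2 injections a day for 10 days. The MET dose was 1 g/kg by the sample labels, and the study's own text also gives a lower one in a legend, so it is uncertain. The PFC was taken 2 h after the CPP test on day 10. Each group had 3 libraries, and each library pooled the RNA of 2 animals, so part of the spread between animals was averaged out before sequencing.

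Oligodendrocytes wrap axons in myelin and arise from dividing precursor cells that remain in the adult cortex. As a precursor leaves the cell cycle and matures, miR-219 and miR-338 rise and repress mRNAs that hold the cell in its dividing state, among them those of the growth factor receptor Pdgfra and the transcription factor Sox6. A miRNA gene is transcribed into a hairpin, and either arm of the hairpin can yield a mature miRNA, named 5p or 3p after the arm. Bases 2 to 8 of a mature miRNA form its seed, which selects its targets.

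The mature sequences of 3 of the 4 members were in the RefSeq table of build GRCm38.p6, and miR-219a-2-3p was the member without an entry. They are given here 5′ to 3′ with the seed in capitals, because they differ in seed and in base composition.
miR-219a-5p: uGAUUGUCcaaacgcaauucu
miR-338-3p: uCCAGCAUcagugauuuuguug
miR-338-5p: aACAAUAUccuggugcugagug
No other listed miRNA with a RefSeq sequence (1160 of 1374 had one) shared any of these 3 seeds. The G and C content was 38.1% in miR-219a-5p, 40.9% in miR-338-3p and 45.5% in miR-338-5p. In GENCODE M21 on the same build, the gene Mir219a-2 lies on the minus strand at chr2:29845631-29845727, outside protein-coding genes and 629 nt from the nearest, Urm1. The gene Mir219a-1 lies on the minus strand at chr17:34024983-34025092, 303 nt from the nearest coding gene, Ring1, where it overlaps an exon of the long noncoding RNA Gm26940. miR-219a-5p comes from both genes with the same sequence, at chr2:29845689-29845709 and chr17:34025052-34025072, so its counts cannot be assigned to either. Mir338 lies on the minus strand at chr11:120014765-120014862, in an intron of Aatk, a kinase gene transcribed from the same strand, and no exon of Aatk overlaps it. Each hairpin faces an annotated one on the opposite strand, Mir219a-2 facing Mir219b, Mir219a-1 facing Mir219c and Mir338 facing Mir3065.

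The total count of a library is given in units of 1000000 counts. It was 8.23, 10 and 11.1 for the SS libraries, 8.47, 8.71 and 8.18 for CS, 11, 10 and 10.4 for MS, and 7.77, 7.97 and 10.9 for MC. Libraries within a group are named in the order of their replicate numbers, which are 12, 13 and 14 for SS, 8, 9 and 10 for CS, 3, 4 and 23 for MS, and 16, 17 and 20 for MC. The level of a miRNA is its count for each 1000000 of the total (CPM). A count of 0 would have allowed a level of up to 0.271 to 0.386 CPM (3 counts), a limit that covers counting error only, and all 4 members were far above it in all 12 libraries.

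MC replicate 16 stood apart from the other libraries. Of 222 miRNAs with a mean of at least 50 CPM, 36 were at least 4-fold below the median of the other libraries in it, against 1 to 4 in each of the other 11. The SD of its log2 deviations was 1.27, against 0.495 to 0.792. Across 193 of these miRNAs with a RefSeq sequence (86.9%), the deviation in MC 16 went with G and C content (r = 0.62, rho = 0.65), while r ran from −0.22 to 0.17 in the other libraries, and miRNAs of 1 library are not independent replicates. Their median G and C content was 47.6%, above that of all 3 members with a sequence. One of these, miR-338-5p, was not low in MC 16, at 16 CPM against a range of 9.06 to 20.8 CPM over all libraries. miR-219a-5p had the lowest deviation of all 222 in this library, −2.93 on the log2 scale, and miR-338-3p had the 8th lowest, −2.55. Its part in the results was not tested as a cause, and member fold changes that moved with it are also given without it.

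The libraries were also divided into 3 sets by clustering on 123 miRNA precursor families, with those of the members left out. The number 3 was a setting of the clustering and not a result, and how clearly the sets separate was not measured. The first set held SS 12, CS 8 and CS 9, the next held SS 13, SS 14, MS 3, MS 4, MS 23 and MC 20, and the last held CS 10, MC 16 and MC 17. All 3 MS libraries were in 1 set, so set and treatment were partly mixed. The source of the sets is not given in the sources used here, and they are not called batches.

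miR-219a-5p, the best studied repressor of the group, was measured at 587, 311 and 240 CPM in SS, 653, 716 and 244 CPM in CS, 569, 579 and 486 CPM in MS, and 73.5, 710 and 525 CPM in MC. The counts behind these levels ran from 571 in MC 16 to 6239 in CS 9. One library of MC and one of CS were low beside their group mates, only the MS libraries lay close together, and the ranges of all 4 groups overlapped. The group means were 380 ± 183 CPM in SS, 538 ± 256 CPM in CS, 545 ± 51.2 CPM in MS and 436 ± 328 CPM in MC (SD, n = 3), where the other 2 libraries without MC 16 had a mean of 618 CPM. No neighbours in this order differed beyond their spread. Its mean over all libraries, 475 CPM, ranked 94 among the 1374 mature miRNAs, and its highest level was 9.75 times its lowest, or 2.98 times over the 11 libraries without MC 16.

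miR-338-3p, the product of the Aatk intron that acts with miR-219 in maturing oligodendrocytes, was measured at 188, 115 and 124 CPM in SS, 224, 292 and 141 CPM in CS, 163, 240 and 168 CPM in MS, and 31.3, 270 and 196 CPM in MC. Its counts ran from 243 in MC 16 to 2546 in CS 9. The lowest and the highest library were the same as for miR-219a-5p, and the 4 groups overlapped. The group means were 142 ± 39.9 CPM in SS, 219 ± 76 CPM in CS, 190 ± 42.9 CPM in MS and 166 ± 122 CPM in MC (SD, n = 3; 233 CPM without MC 16), and no neighbours in the order SS, MC, MS and CS differed beyond their SDs. Its mean of 179 CPM ranked 142, and its highest level was 9.35 times its lowest, or 2.55 times without MC 16.

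miR-219a-5p and miR-338-3p moved together from library to library although they come from different chromosomes. With group means subtracted, their log2 levels correlated with r = 0.96 and rho = 0.95 over the 12 libraries, which share the library total as the denominator of both levels. Without MC 16, r was 0.87 over 11 libraries. The ratio of their counts, in which the library total cancels, held a narrow range. It was 0.32, 0.369 and 0.516 in SS, 0.344, 0.408 and 0.576 in CS, 0.286, 0.414 and 0.346 in MS, and 0.426, 0.38 and 0.372 in MC. miR-338-3p was thus between 0.286 and 0.576 of miR-219a-5p in all 12 libraries, and MC 16, in which both were at their lowest, had 0.426. On the log2 scale the ratio ran from −1.81 to −0.80 with a median of −1.41 and an SD of 0.28. Its means were −1.34 for SS, −1.21 for CS, −1.54 for MS and −1.35 for MC, and an exact permutation test of F over the 15400 groupings of the libraries gave p = 0.629 (F = 0.616, adjusted p = 0.92 over 3 ratios by Benjamini-Hochberg).

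**Figure D1:**
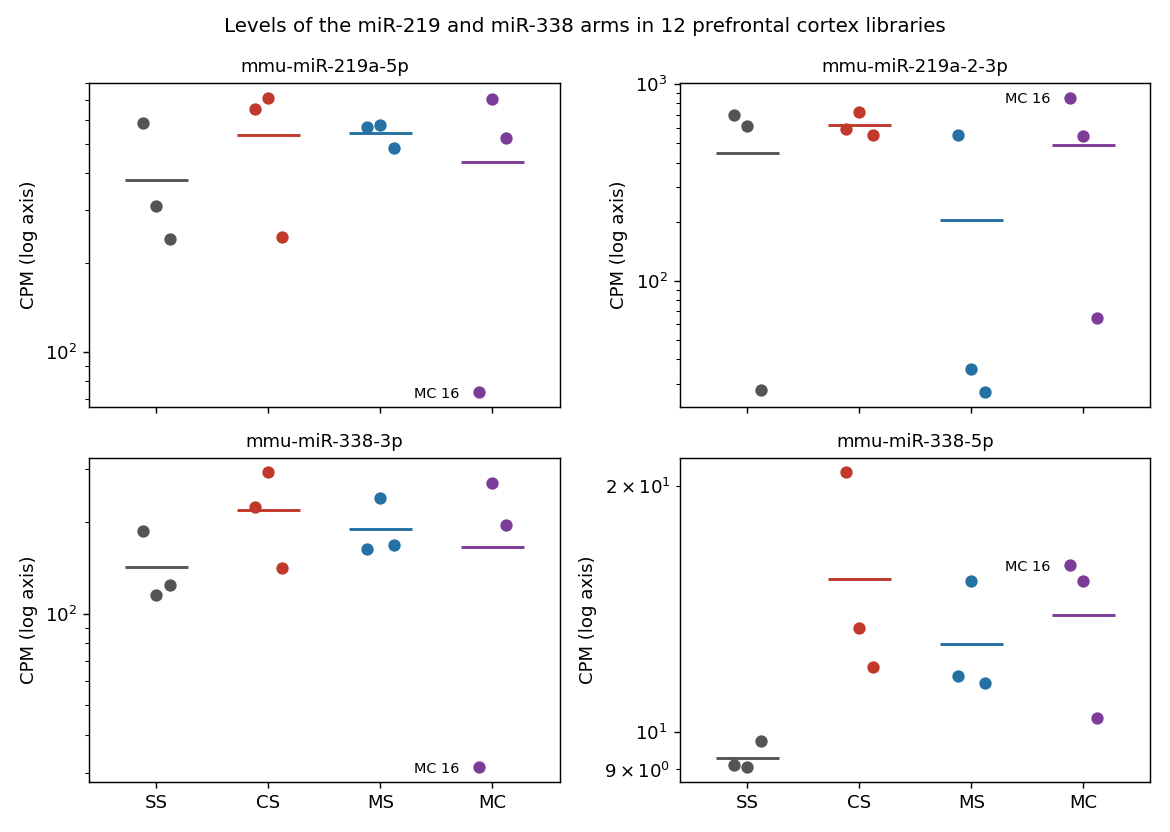
Level of each of the 4 members in CPM (log axis) for the groups SS, CS, MS and MC, with 1 point a library and a line at the mean of 3 libraries. MC 16 is the lowest point for miR-219a-5p (73.5 CPM) and miR-338-3p (31.3 CPM), miR-219a-2-3p splits into high and low libraries across groups, and miR-338-5p in SS (9.06 to 9.75 CPM) lies below all libraries of CS and MS.

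miR-219a-2-3p, the 3p arm made only from Mir219a-2, was measured at 695, 616 and 27.7 CPM in SS, 593, 724 and 549 CPM in CS, 551, 35.8 and 27.1 CPM in MS, and 856, 547 and 64.8 CPM in MC. It was either high, at 547 to 856 CPM in 8 libraries, or low, at 27.1 to 64.8 CPM in SS 14, MS 4, MS 23 and MC 20, with no library between. The low libraries came from 3 of the 4 groups, so SS, MS and MC each held both levels and overlapped, and only CS held 3 high libraries. The group means of 446 ± 365 CPM in SS, 622 ± 90.9 CPM in CS, 205 ± 300 CPM in MS and 489 ± 399 CPM in MC (SD, n = 3; 306 CPM without MC 16) are averages over both levels, except in CS. Counts in the low libraries were 307, 358, 282 and 707, so the low level was itself well counted. All 4 low libraries were in the set of 6 named second among the 3 sets, which also held SS 13 and MS 3 with high levels, and the part of the set in this split was not tested. The within-group SD of its log2 level, 2.02, ranked 4th among 347 miRNAs with a mean of at least 10 CPM, whose median was 0.54. For miR-219a-5p the same SD was 1.04 (rank 29), for miR-338-3p 0.903 (rank 43) and for miR-338-5p 0.277 (rank 329).

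The low libraries were those in which miR-219b-5p, from the hairpin on the opposite strand of Mir219a-2, was high. miR-219b-5p was measured at 11.1, 10.1 and 518 CPM in SS, 8.38, 52.5 and 9.29 CPM in CS, 40.3, 639 and 585 CPM in MS, and 56.8, 43.6 and 464 CPM in MC. It stood at 464 to 639 CPM in SS 14, MS 4, MS 23 and MC 20 and at 8.38 to 56.8 CPM in the other 8 libraries, the mirror of miR-219a-2-3p. The pair correlated with r = −0.92 and rho = −0.86 over 12 libraries with group means subtracted, and with r = −0.92 over 11 without MC 16. Its mature sequence, with the seed in capitals, and the Mir219a-2 hairpin, with the stretch complementary to miR-219b-5p in capitals, show how the pair is placed.
miR-219b-5p: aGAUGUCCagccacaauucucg
Mir219a-2: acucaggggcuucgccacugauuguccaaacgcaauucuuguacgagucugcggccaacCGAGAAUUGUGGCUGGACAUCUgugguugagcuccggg
miR-219b-5p is encoded on the plus strand at chr2:29845647-29845668, and the complementary stretch lies in the 3′ arm of the Mir219a-2 hairpin, the arm that names miR-219a-2-3p. Whether strand was used in counting is not given in the sources used here, and without strand the reads of such a pair cannot be told apart. Each of the 2 levels is therefore uncertain, and their sum is given beside them.

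The sum of miR-219a-2-3p and miR-219b-5p was 706, 626 and 546 CPM in SS, 601, 776 and 559 CPM in CS, 592, 675 and 612 CPM in MS, and 913, 590 and 529 CPM in MC. The split into high and low libraries was gone in the sum, and the 4 groups overlapped. Its coefficient of variation over the 12 libraries was 17.1%, against 70.2% for miR-219a-2-3p and 128% for miR-219b-5p alone. The group means were 626 ± 80 CPM in SS, 645 ± 115 CPM in CS, 626 ± 43.4 CPM in MS and 677 ± 206 CPM in MC (SD, n = 3; 560 CPM without MC 16). miR-219b-5p held 94.9% of the sum in SS 14, 94.7% in MS 4, 95.6% in MS 23 and 87.8% in MC 20, and between 1.39% and 7.39% in the other 8 libraries. The RefSeq table held 36 pairs of mature miRNAs that overlap on opposite strands, with miR-5615-5p and miR-5615-3p counted in both strand orders. Of these pairs, 16 had at least 100 summed counts in each library. In 3 of these 16 the lesser partner reached 10% of the sum in some library. The pair of miR-219a-2-3p and miR-219b-5p is not among the 36, because miR-219a-2-3p has no entry in that table.

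**Figure D2:**
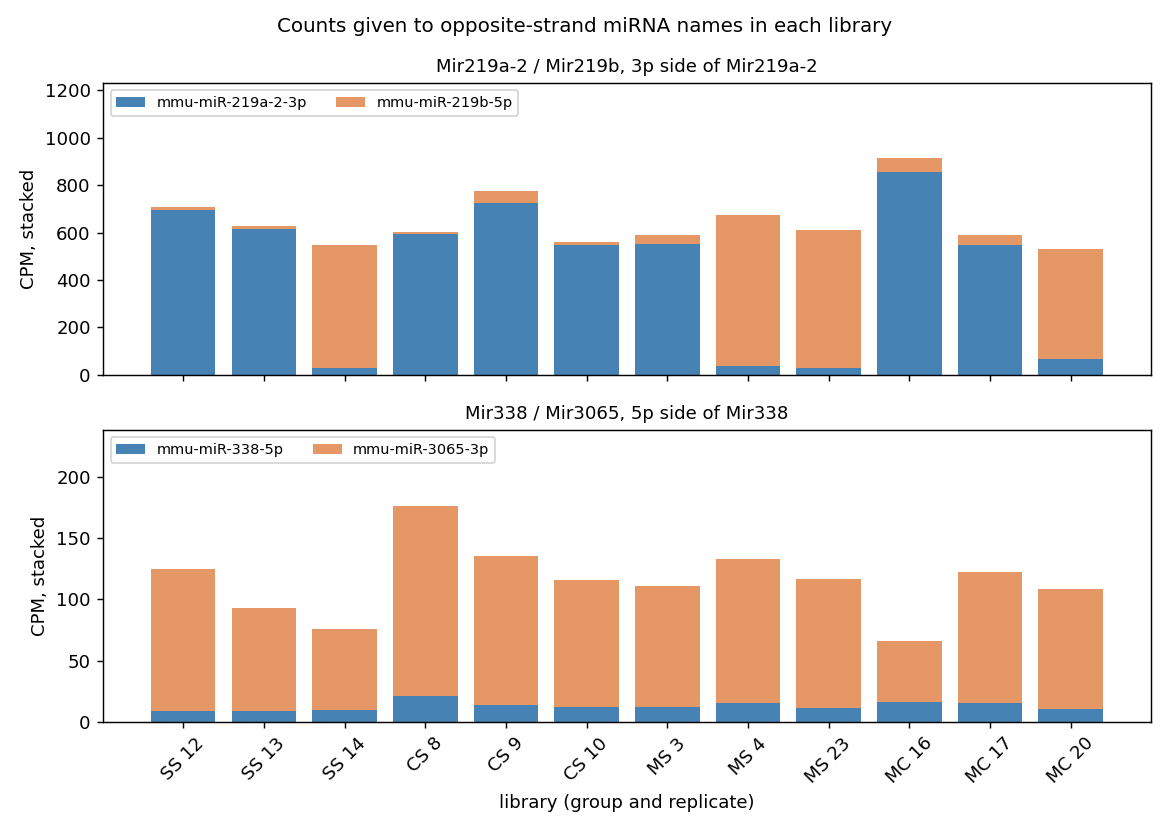
Stacked bars from 0 give the level in CPM of miR-219a-2-3p with miR-219b-5p and of miR-338-5p with miR-3065-3p in each of the 12 libraries. The first pair changes partner in SS 14, MS 4, MS 23 and MC 20 while its sum stays between 529 and 913 CPM, and in the other pair miR-3065-3p holds 75.7% to 92.7% of the sum.

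miR-338-5p, the less abundant arm of Mir338, was measured at 9.11, 9.06 and 9.75 CPM in SS, 20.8, 13.4 and 12 CPM in CS, 11.7, 15.3 and 11.5 CPM in MS, and 16, 15.3 and 10.4 CPM in MC. The 3 SS libraries were the lowest of all 12 and lay close together, so SS did not overlap with CS or MS in CPM, which also held for 13.2% of the 780 tested miRNAs in CS vs. SS and 22.8% in MS vs. SS, most of them lower in SS. The group means were 9.31 ± 0.382 CPM in SS, 15.4 ± 4.71 CPM in CS, 12.8 ± 2.15 CPM in MS and 13.9 ± 3.07 CPM in MC (SD, n = 3), and CS, MC and MS overlapped. The counts behind these levels were small, from 75 in SS 12 to 176 in CS 8. With TMM-normalised CPM, the level of MC 20 became 8.8 and fell below those of SS (10.1, 11 and 10.1), while all CS and MS libraries (11.4 to 16.5) still lay above SS. miR-338-5p ranked 330 among the mature miRNAs.

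On the strand facing Mir338 lies Mir3065, and by its arm miR-3065-3p faces miR-338-5p. miR-3065-3p held 92.7, 90.2 and 87.2% of the sum of the pair in SS, 88.3, 90.1 and 89.7% in CS, 89.5, 88.6 and 90.1% in MS, and 75.7, 87.5 and 90.5% in MC. It was the greater partner in all 12 libraries, so the level of miR-338-5p rests on the smaller share of the reads of its locus, and the same limit on strand holds. The summed level was 125, 92.7 and 75.9 CPM in SS, 177, 135 and 116 CPM in CS, 111, 134 and 116 CPM in MS, and 65.7, 123 and 109 CPM in MC. In the sum SS and CS overlapped (SS 12 above CS 10), as did SS and MS. miR-3065-3p moved with miR-219a-5p (r = 0.92, rho = 0.88) and miR-338-3p (r = 0.87, rho = 0.81) and not with miR-338-5p (r = 0.07, rho = 0.15), all over 12 libraries with group means subtracted and a shared library total. Without MC 16 these were 0.81, 0.67 and 0.52 over 11 libraries. For miR-338-3p the partner was minor, since miR-3065-5p had 2 to 41 counts a library, 0.262% to 1.68% of their sum.

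Apart from miR-219b-5p, the other arms and loci were less abundant than any of the members. miR-219c-3p, which faces miR-219a-5p at Mir219a-1, had 2 to 49 counts a library, 0.253% to 0.922% of their sum, and miR-219a-1-3p had 1 to 7 counts. miR-219b-3p had 2 counts in MC 17 alone, and miR-219c-5p had 0 to 2 counts. Of these 5 miRNAs with miR-219b-5p among them, 3 were abundant enough to be tested, and none was called in any comparison. In CS vs. SS miR-219b-5p had a log2 fold change of −3.07 (SE 1.58), in MS vs. SS 1.06, in MC vs. CS 2.95 (SE 1.57) and in MC vs. MS −1.18, which carries the split of the libraries with it. Without MC 16 the values of the MC comparisons were 3.32 (SE 1.75) and −0.82 (SE 1.74). miR-219c-3p in MC vs. MS was the only one with an unadjusted p under 0.05 (log2 fold change −1.54, SE 0.657, adjusted p = 0.561 by the quasi-likelihood test of edgeR (Benjamini-Hochberg)). MC 16 had 2 counts of it, and without that library the fold change was −1.19 (SE 0.662) and the unadjusted p no longer under 0.05. MC 17 and MC 20, at 1.88 and 2.02 CPM, also lay below all MS libraries (2.9 to 4.52 CPM). Reads assigned to the precursor family mir-219 were 1271, 382 and 326 counts in SS, 974, 1204 and 365 in CS, 681, 666 and 719 in MS, and 295, 517 and 755 in MC. Those of the mir-338 family were 203, 135 and 150 counts in SS, 210, 271 and 110 in CS, 197, 269 and 228 in MS, and 25, 160 and 206 in MC. MC 16 had the lowest count for both families. In CPM SS 14 was lower for mir-219 (29.4 against 38 in MC 16) and MC 16 was lowest for mir-338 (3.22), and the groups overlapped in both.

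The ratio between the arms of Mir338 spanned 11.1-fold over 12 libraries and 2.01-fold over 11 without MC 16, where that of miR-338-3p to miR-219a-5p spanned 2.01-fold with it and without it. The count of miR-338-3p was 20.6, 12.7 and 12.7 times that of miR-338-5p in SS, 10.8, 21.8 and 11.7 times in CS, 13.9, 15.7 and 14.7 times in MS, and 1.96, 17.6 and 18.9 times in MC. In 11 libraries the ratio was between 10.8 and 21.8, and only MC 16 was far lower. The log2 ratio had means of 3.89 ± 0.404 for SS, 3.80 ± 0.551 for CS, 3.88 ± 0.0856 for MS and 3.11 ± 1.86 for MC (SD, n = 3), with p = 0.92 in the exact permutation test of F (F = 0.429, adjusted p = 0.92 over 3 ratios). Within groups the arms correlated with r = −0.11 and rho = −0.05 over 12 libraries, and with r = 0.49 over 11 without MC 16. The count of miR-219a-2-3p was 1.18, 1.98 and 0.115 times that of miR-219a-5p in SS, 0.908, 1.01 and 2.25 times in CS, 0.97, 0.0617 and 0.0559 times in MS, and 11.6, 0.769 and 0.123 times in MC. The 4 lowest ratios were those of the libraries rich in miR-219b-5p, and MC 16 was the highest, because miR-219a-5p was low there and miR-219a-2-3p was not. On the log2 scale this ratio ran from −4.16 to 3.54, and the exact permutation test of F gave p = 0.412 (F = 1.08, adjusted p = 0.92 over 3 ratios). With miR-219b-5p added to miR-219a-2-3p it ran from −0.27 to 3.63 and the exact permutation p was 0.91. The highest value was again that of MC 16, and the next was 1.18, in SS 14 and CS 10.

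CS vs. SS asks what cocaine alone did. All 4 members had a fold change above 0, and none was called. The log2 fold change was 0.20 for miR-219a-5p (SE 0.557, 95% interval −1.02 to 1.42), 0.18 for miR-219a-2-3p (SE 1.31, −2.69 to 3.05), 0.36 for miR-338-3p (SE 0.476, −0.69 to 1.40) and 0.44 for miR-338-5p (SE 0.334, −0.30 to 1.17). The adjusted p was 0.994 for each of them by the quasi-likelihood test of edgeR with p-values adjusted after Benjamini-Hochberg over 780 miRNAs, a call being an adjusted p of at most 0.05. All 4 intervals include a doubling and those of miR-219a-5p and miR-219a-2-3p also a halving, so the comparison shows neither a change nor its absence. In bulk tissue fewer oligodendrocytes and less miRNA in each of them cannot be told apart in any of these values. Over all tested miRNAs edgeR called 0 of 780 (0%), 22 had an unadjusted p under 0.05, and DESeq2 called 0. None of the 4 members had an unadjusted p under 0.05. Their median log2 fold change was 0.28, against 0.03 over all 780. miR-338-5p was the 1 of 4 members whose CS and SS libraries did not overlap in CPM, where 13.2% of the 780 tested miRNAs did not overlap, 96 of these 103 higher in CS. Without TMM scaling the median log2 fold change over all miRNAs moved by 0.27 in CS vs. SS, 0.25 in MS vs. SS and −0.33 in the interaction, so fold changes are stated with it and levels in CPM carry that shift. With the partners summed, miR-219a-2-3p gave −0.21 (SE 0.38, −1.04 to 0.62) and miR-338-5p 0.26 (SE 0.239, −0.27 to 0.78). With the library set as a covariate miR-219a-5p gave −0.05, miR-219a-2-3p −1.39, miR-338-3p 0.24 and miR-338-5p 0.10.

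MS vs. SS asks what MET alone did, against the same 3 SS libraries. miR-219a-2-3p had a log2 fold change of −1.37 (SE 1.33, 95% interval −4.29 to 1.55), with 2 low libraries in MS and 1 in SS, and the other members had 0.27 for miR-219a-5p (SE 0.557, −0.95 to 1.49), 0.16 for miR-338-3p (SE 0.476, −0.88 to 1.20) and 0.20 for miR-338-5p (SE 0.334, −0.53 to 0.94). The adjusted p was 0.936 for miR-219a-5p, 0.802 for miR-219a-2-3p, 0.957 for miR-338-3p and 0.901 for miR-338-5p by the quasi-likelihood test of edgeR (Benjamini-Hochberg). The fold change of miR-219a-2-3p was −4.16 without MS 3, the 1 MS library in which it was high, and −0.25 (SE 0.38, −1.08 to 0.58) with miR-219b-5p added. Summed with miR-3065-3p, miR-338-5p gave 0.04 (SE 0.238, −0.48 to 0.57). The library set as a covariate gave −0.70 for miR-219a-2-3p, 0.69 for miR-219a-5p, 0.37 for miR-338-3p and 0.32 for miR-338-5p. edgeR called 0 of 780 miRNAs (0%), 75 had an unadjusted p under 0.05, none of them a member, and DESeq2 called 13, none of them a member. Without MC 16, which enters through the shared spread, edgeR called 5, none of them a member. They were miR-153-3p of the neuron markers, miR-9-5p of the oligodendrocyte list, miR-29a-3p, miR-29c-3p and a predicted miRNA, the last 3 named after their values were seen. The median log2 fold change of the members was 0.18, against −0.03 over all 780. Again miR-338-5p was the 1 of 4 members without overlap in CPM, where 22.8% of the 780 miRNAs did not overlap, 146 of these 178 higher in MS.

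MC vs. CS asks what MET added to cocaine did. miR-219a-5p and miR-338-3p had fold changes below 0, −0.33 (SE 0.557, 95% interval −1.55 to 0.89) and −0.46 (SE 0.477, −1.50 to 0.59) on the log2 scale, and miR-219a-2-3p and miR-338-5p lay close to 0 with 0.03 (SE 1.31, −2.83 to 2.90) and 0.10 (SE 0.333, −0.63 to 0.84). The values moved with MC 16, without which they were 0.12 for miR-219a-5p (SE 0.44), −0.02 for miR-338-3p, −1.17 for miR-219a-2-3p and −0.36 for miR-338-5p. The adjusted p with all libraries was 0.811 for miR-219a-5p, 0.992 for miR-219a-2-3p, 0.687 for miR-338-3p and 0.915 for miR-338-5p by the quasi-likelihood test of edgeR (Benjamini-Hochberg). edgeR called 0 of 780 (0%), 58 had an unadjusted p under 0.05, none of them a member, and DESeq2 called 0. Without MC 16 edgeR called 2 miRNAs, neither of them a member, miR-153-3p of the neuron markers and miR-142a-5p of the myeloid markers. Of the 4 members 0 were without overlap in CPM, against 5% of the 780. The median log2 fold change of the members was −0.15, against 0.08 over all 780. With partners summed, miR-219a-2-3p gave 0.35 (SE 0.38, −0.49 to 1.18) and miR-338-5p −0.42 (SE 0.239, −0.94 to 0.11). Without MC 16 the summed values were −0.33 (SE 0.22, −0.82 to 0.16), of the opposite sign, and −0.40 (SE 0.242). The library set as a covariate gave 0.51 for miR-219a-5p, −0.42 for miR-219a-2-3p, −0.02 for miR-338-3p and 0.08 for miR-338-5p.

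MC vs. MS asks what cocaine added to MET did, with the MC libraries in common with MC vs. CS. miR-219a-2-3p had a log2 fold change of 1.59 (SE 1.34, 95% interval −1.35 to 4.52), the largest of the 4 members, and miR-219a-5p had −0.40 (SE 0.557, −1.62 to 0.82), miR-338-3p −0.26 (SE 0.476, −1.30 to 0.78) and miR-338-5p 0.34 (SE 0.333, −0.40 to 1.07). The adjusted p was 0.85 for miR-219a-5p, 0.759 for miR-219a-2-3p, 0.892 for miR-338-3p and 0.779 for miR-338-5p by the quasi-likelihood test of edgeR (Benjamini-Hochberg). The first value moved most with single libraries, to 4.37 without MS 3 and 0.35 without MC 16, and it was 0.39 (SE 0.38, −0.45 to 1.22) with miR-219b-5p added. That sum also turned without MC 16, to −0.31 (SE 0.22, −0.80 to 0.18). Summed with miR-3065-3p, miR-338-5p gave −0.20 (SE 0.239, −0.72 to 0.32), and the same −0.20 (SE 0.241) without MC 16. Without MC 16 the other members had 0.03 for miR-219a-5p, 0.16 for miR-338-3p and −0.14 for miR-338-5p, each of the opposite sign. The library set as a covariate turned miR-219a-2-3p to −1.12 and miR-338-5p to −0.14, and gave −0.23 for miR-219a-5p and −0.15 for miR-338-3p. edgeR called 0 of 780 (0%), 65 had an unadjusted p under 0.05, none of them a member, and DESeq2 called 0. Of the 4 members 0 were without overlap, against 8.33% of the 780. The median of the members was 0.04, against 0.05 over all 780.

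The interaction, the cocaine difference with MET less the cocaine difference without it, was −0.60 for miR-219a-5p (SE 0.788, 95% interval −2.33 to 1.12), 1.40 for miR-219a-2-3p (SE 1.86, −2.67 to 5.48), −0.62 for miR-338-3p (SE 0.674, −2.09 to 0.86) and −0.10 for miR-338-5p (SE 0.471, −1.13 to 0.93) on the log2 scale. Without MC 16 these were −0.12 (SE 0.593), 0.22 (SE 1.95), −0.16 (SE 0.421) and −0.54 (SE 0.303). With partners summed, miR-219a-2-3p gave 0.60 (SE 0.537, −0.58 to 1.77) and miR-338-5p −0.46 (SE 0.337, −1.20 to 0.28), and without MC 16 these sums gave −0.07 (SE 0.293) and −0.42 (SE 0.322). The library set as a covariate gave −0.18, 0.28, −0.39 and −0.24. With all libraries the adjusted p was 0.869 for the first 3 and 0.955 for miR-338-5p by the quasi-likelihood test of edgeR (Benjamini-Hochberg). edgeR called 0 of 780 (0%), 34 had an unadjusted p under 0.05, none of them a member, and DESeq2 called 0. Among all 4 groups the adjusted p of the same test was 0.955 for miR-219a-5p, 0.863 for miR-219a-2-3p, 0.918 for miR-338-3p and 0.772 for miR-338-5p, with 0 of 780 called (0%), 59 at an unadjusted p under 0.05 and 13 called by DESeq2, none of them a member. Without MC 16 edgeR called 3 among groups, miR-153-3p, miR-29a-3p and miR-29c-3p, none of them a member. These p-values miss the threshold and do not show that the groups were alike.

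The other miRNAs of the oligodendrocyte lineage, 13 that are known to act on precursors, on maturation or on myelin genes, were all tested. With all 12 libraries edgeR called 0 of 13 in each comparison, and 1 had an unadjusted p under 0.05 in CS vs. SS, 3 in MS vs. SS and 0 in MC vs. CS, MC vs. MS and the interaction. Without MC 16 these numbers were 3, 4, 2, 2 and 2, and over all 780 miRNAs they were 56, 140, 51, 32 and 46 in that fit. There edgeR called 1 of 13, miR-9-5p in MS vs. SS, where it called 5 of 780. Their median log2 fold change was −0.12 in CS vs. SS, −0.16 in MS vs. SS, 0.08 in MC vs. CS and −0.09 in MC vs. MS, against 0.03, −0.03, 0.08 and 0.05 over all 780. Those above 0 numbered 6, 6, 7 and 6 of 13 in the same order. The summed level of the list was 83235, 86648 and 96385 CPM in SS, 100138, 82850 and 79417 CPM in CS, 75941, 79454 and 69941 CPM in MS, and 46451, 89913 and 102389 CPM in MC. MC 16 was the lowest library here too, and the most abundant of the list was miR-9-5p, also made by neurons and their progenitors, at 47647 ± 12361 CPM (SD, n = 12). It was measured at 48749, 52557 and 61617 CPM in SS and 42223, 42667 and 38760 CPM in MS, all MS libraries below all SS libraries. Of the 780 miRNAs, 22.8% did not overlap in CPM in MS vs. SS, 32 of these 178 lower in MS. The log2 fold change of miR-9-5p in MS vs. SS was −0.64 (SE 0.253, adjusted p = 0.457) with all libraries and −0.65 (SE 0.103, adjusted p = 0.0163) without MC 16, by the quasi-likelihood test of edgeR (Benjamini-Hochberg). miR-7a-5p, also abundant in neurons and endocrine cells, was the only one of the list that DESeq2 called, in MS vs. SS and among groups, and is named for that after its values were seen. It was measured at 2814, 3221 and 4876 CPM in SS and at 2353, 2206 and 2161 CPM in MS. All MS libraries lay below all SS libraries, with the same share over the 780 as given for miR-9-5p. By the quasi-likelihood test of edgeR (Benjamini-Hochberg) the log2 fold change of miR-7a-5p was −0.93 (SE 0.234, adjusted p = 0.315) in MS vs. SS and −0.56 (SE 0.233, adjusted p = 0.994) in CS vs. SS. Without MC 16 the same test gave −0.94 (SE 0.179, adjusted p = 0.0515) and −0.58 (SE 0.178, adjusted p = 0.639).

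Markers of the other cells of cortical tissue were measured in the same libraries. The 7 neuron markers had counts in all 12 libraries and summed to 198944, 211320 and 116121 CPM in SS, 74779, 191231 and 184809 CPM in CS, 209102, 77207 and 208119 CPM in MS, and 70079, 77506 and 75541 CPM in MC. The most abundant, miR-124-3p, which drives neuronal identity, had the highest mean of all mature miRNAs, 103198 ± 64724 CPM (SD, n = 12), so the defining miRNA of neurons was present at a high level in the libraries labelled as cortex. The sum was low in all 3 MC libraries and in CS 8 and MS 4, and this split was that of miR-124-3p, at 30002 to 46349 CPM in these 5 libraries and 70274 to 176336 CPM in the other 7. The other 6 neuron markers summed to 33671, 34985 and 45847 CPM in SS, 44776, 42302 and 30843 CPM in CS, 40921, 41655 and 36511 CPM in MS, and 23730, 38784 and 42354 CPM in MC. Without miR-124-3p only MC 16 was below the other libraries. The median log2 fold change of the 7 markers was −0.10 in MC vs. CS, with 3 of 7 above 0. Without MC 16 it was 0.02, with 4 of 7 above 0. The part of miR-124-3p in the members' values was not tested.

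The 6 myeloid and leukocyte markers, led by miR-150-5p of mature lymphocytes, summed to 2163, 1401 and 2349 CPM in SS, 1042, 1095 and 2082 CPM in CS, 2456, 2292 and 1995 CPM in MS, and 1571, 2747 and 2643 CPM in MC. The 2 endothelial markers, led by miR-126a-3p, summed to 6592, 7375 and 6580 CPM in SS, 8465, 7673 and 6878 CPM in CS, 9358, 9877 and 7669 CPM in MS, and 2972, 7621 and 7940 CPM in MC. MC 16 was the lowest library of the endothelial markers, and for the myeloid markers 3 libraries were lower. The 3 vascular wall markers, led by miR-143-3p of smooth muscle, summed to 3154, 3608 and 3294 CPM in SS, 4004, 4112 and 3427 CPM in CS, 4200, 4448 and 3184 CPM in MS, and 818, 4281 and 4111 CPM in MC. The 4 red blood cell markers, led by miR-451a, summed to 2221, 1931 and 1496 CPM in SS, 2396, 2677 and 2407 CPM in CS, 3973, 2686 and 2560 CPM in MS, and 387, 3596 and 3057 CPM in MC. Both sums were lowest in MC 16, and in the other 11 libraries they ran from 3154 to 4448 CPM for the vascular wall and from 1496 to 3973 CPM for red blood cells. The 7 choroid plexus and epithelial markers, led by miR-204-5p, summed to 2041, 1740 and 2327 CPM in SS, 2251, 2304 and 2479 CPM in CS, 3251, 2017 and 1960 CPM in MS, and 742, 1497 and 2700 CPM in MC. Most of this sum was miR-204-5p, and the other 6, led by the epithelial miR-200 family, summed to 131, 115 and 126 CPM in SS, 141, 230 and 993 CPM in CS, 790, 113 and 293 CPM in MS, and 61.1, 222 and 411 CPM in MC. CS 10 and MS 3 were the highest libraries, and CS, MS and MC varied more than SS. The median log2 fold change of all 7 was 1.62 in CS vs. SS and 1.34 in MS vs. SS, with 5 of 7 above 0 in each, −0.82 in MC vs. CS, −0.49 in MC vs. MS, and −2.51 in the interaction, with 0 of 7 above 0. Without MC 16 the median in the interaction was −2.06. The part of epithelial RNA in the members' values was not tested. Each marker had a count in some library, and with all 12 libraries edgeR and DESeq2 called 0 markers of any of these lists in any comparison. The number with an unadjusted p under 0.05 ran from 0 to 2 for each list and comparison. The myeloid markers had a median log2 fold change of 0.82 in MC vs. CS (4 of 6 above 0), and 1.05 without MC 16. For the red blood cell markers it was 1.00 in MS vs. SS (3 of 4 above 0). Over all 780 it was 0.08 in MC vs. CS and −0.03 in MS vs. SS. The part of either list in the members' values was not tested. Without MC 16 edgeR called a pair of the markers of all these lists. The neuronal miR-153-3p was measured at 2637, 2106 and 3063 CPM in SS, 4005, 3427 and 3719 CPM in CS, 6780, 8548 and 5656 CPM in MS, and 1043, 7607 and 7868 CPM in MC. All MS libraries were above all SS libraries, where 22.8% of the 780 miRNAs did not overlap in CPM, 146 of these 178 higher in MS. MC 17 and MC 20 were above all CS libraries, with MC 16 below all others. Without MC 16 its log2 fold change was 1.16 (SE 0.137, adjusted p = 0.00585) in MS vs. SS and 0.94 (SE 0.149, adjusted p = 0.0401) in MC vs. CS by the quasi-likelihood test of edgeR (Benjamini-Hochberg), against 1.18 (SE 0.419, adjusted p = 0.386) and 0.50 (SE 0.414, adjusted p = 0.647) with all libraries. Most neuron markers went the other way in MS vs. SS, where 2 of 7 were above 0. The median log2 fold change of the 7 there was −0.28 with all libraries and −0.30 without MC 16. The leukocyte miR-142a-5p, with 18 to 25 counts in the CS libraries and 8, 77 and 91 in MC, stood at 2.36, 2.07 and 3.06 CPM in CS and 1.03, 9.66 and 8.34 CPM in MC. By the same test of edgeR (Benjamini-Hochberg) its log2 fold change in MC vs. CS was 1.71 (SE 0.275, adjusted p = 0.0401) without MC 16 and 1.27 (SE 0.494, adjusted p = 0.577) with it. The part of these markers in the members' values was not tested. miR-145a-5p and miR-204-5p stand both in a marker list and in the oligodendrocyte list. The fall of MC 16 in these sums went with its low miR-219a-5p and miR-338-3p, and the part of either in the other was not tested.

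The miRNAs whose levels followed each member most closely were sought among 344 others with a mean of at least 10 CPM, over 12 libraries with group means subtracted and with the library total in common. For miR-219a-5p they were miR-31-3p (r = 0.97, rho = 0.96), miR-338-3p (0.96, 0.95), miR-381-3p (0.96, 0.96), miR-497a-5p (0.95, 0.92) and miR-380-3p (0.94, 0.92). For miR-338-3p they were miR-381-3p (r = 0.98, rho = 0.92), miR-15a-5p (0.97, 0.94), miR-219a-5p (0.96, 0.95), miR-31-3p (0.96, 0.92) and miR-22-3p (0.96, 0.86). miR-31-3p and miR-381-3p were in both lists, and each member was in the list of the other. For miR-219a-2-3p the closest were miR-744-5p (r = 0.72, rho = 0.73), miR-486a-5p (0.62, 0.55), miR-27b-5p (0.61, 0.52), miR-222-3p (0.61, 0.66) and miR-532-3p (0.52, 0.43). For miR-338-5p they were miR-652-3p (r = 0.91, rho = 0.97), miR-134-5p (0.91, 0.87), miR-138-2-3p (0.86, 0.84), miR-378a-3p (0.86, 0.81) and miR-501-3p (0.84, 0.84). No other member was among the 5 closest to either of these arms. Without MC 16, 2 of the 5 remained for miR-219a-5p, 2 for miR-219a-2-3p, 4 for miR-338-3p and 2 for miR-338-5p. For miR-219a-2-3p the closest without MC 16 was then miR-451a (r = 0.94, rho = 0.95 over 11 libraries), followed by miR-486a-5p (r = 0.85, rho = 0.80), both red blood cell markers. With MC 16 the values were −0.07 and 0.32 for miR-451a. The remaining red blood cell markers gave r = 0.25 and rho = 0.21 for miR-144-3p and r = 0.70 and rho = 0.67 for miR-144-5p without MC 16. miR-451a stood at 2205, 1911 and 1489 CPM in SS, 2341, 2658 and 2378 CPM in CS, 3947, 2668 and 2544 CPM in MS, and 382, 3549 and 3045 CPM in MC. In SS, MS and MC without MC 16 it was lower in the libraries low in miR-219a-2-3p than in the others of their group, and its part in that split was not tested.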

How the data were processed

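Small RNAs of 18 to 30 nt from the PFC were sequenced on a BGISEQ-500 as 50 nt reads. The study's methods name AASRA for the genome alignment, and Bowtie for piRBase, which was searched with what remained once miRNA, rRNA and tRNA reads were set aside. The submitters' processing notes name Bowtie too, and the build mm10. The authors deposited, for each library, a count and a TPM value of each small RNA. The deposited TPM equalled the count per 1000000 counts of the library within 0.005. The steps from here on used these counts, with groups taken from the sample labels.

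Mature and predicted miRNAs that reached 5 counts in 3 or more libraries (780) were compared on their counts with edgeR 4.0.16 (R 4.3.3), with glmQLFit and glmQLFTest, 1 coefficient a group, TMM factors over miRNAs and the total count as library size. All 12 libraries shared the estimate of spread, with 8 residual degrees of freedom, and p-values were adjusted by Benjamini-Hochberg over the 780. The fitting step was tested on simulated data. Ratios of members had 0.5 added to both counts. Correlations used log2(CPM + 1). The rest was done in Python 3.11.15 with numpy 2.4.6, scipy 1.17.1 and pandas 2.3.3, and drawn with matplotlib 3.10.9. The exact permutation tests took F as statistic, which has no sign. The p-values measure the spread between libraries, each pooled from 2 animals. No pair of libraries was a duplicate: the smallest chi-square per degree of freedom over 66 pairs and 526 miRNAs was 155.

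Alternatives were DESeq2 1.42.0, other TMM factors or none, other filters, mature miRNAs only, the libraries of a comparison alone, a fold limit, the library set as covariate, other pseudocounts and denominators, and each library left out in turn. The miRNAs named are the members, their other arms and loci, those with a shared seed, the 5 of closest pattern, and from each list the most abundant and any called, also without MC 16. The lists were other miRNAs of the oligodendrocyte lineage and markers of neurons, myeloid cells and leukocytes, endothelium, vascular wall, red blood cells, and choroid plexus and epithelium. The members and lists were chosen with earlier results of these data known. Facing miRNAs such as miR-3065-3p, the sums with them (also without MC 16), the partner shares, the closest patterns without MC 16, and the levels and correlations of red blood cell markers and of neuron and epithelial markers without the most abundant were added after seeing the data. miR-219a-2-3p and miR-3065-3p were paired with their partners by hairpin arm.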

Additional observations from a re-analysis of the deposited data

How the results depend on the processing

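No paired analysis was possible because the groups share no replicate numbers. Of 196 values of the 20 member results under alternatives other than leaving out each library in turn, 21 changed sign and 0 passed the threshold. These were, with TMM factors from all small RNAs, miR-219a-2-3p in MC vs. CS (−0.09). With no TMM factors they were miR-219a-2-3p (−0.35) and miR-338-5p (−0.15) in MC vs. CS. With the library set as covariate they were miR-219a-5p (−0.05) and miR-219a-2-3p (−1.39) in CS vs. SS, miR-219a-5p (0.51) and miR-219a-2-3p (−0.42) in MC vs. CS, and miR-219a-2-3p (−1.12) and miR-338-5p (−0.14) in MC vs. MS. With partners summed, chosen after seeing the data, they were miR-219a-2-3p in CS vs. SS (−0.21) and miR-338-5p in MC vs. CS (−0.42) and MC vs. MS (−0.20). With partners summed and MC 16 left out, also chosen after seeing the data, they were miR-219a-2-3p in CS vs. SS (−0.24), MC vs. CS (−0.33), MC vs. MS (−0.31) and the interaction (−0.07), miR-219a-5p in MC vs. CS (0.12) and MC vs. MS (0.03), miR-338-3p in MC vs. MS (0.15), and miR-338-5p in MC vs. CS (−0.40) and MC vs. MS (−0.20). That fit called 5 miRNAs in MS vs. SS, 2 in MC vs. CS and 3 among groups. The cause of these changes was not tested. DESeq2 called 13 miRNAs in MS vs. SS and 13 among groups, and the fit of the 6 libraries alone called 4 in MS vs. SS.

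With each library left out in turn, the number called ran from 0 to 5 in MS vs. SS, 0 to 2 in MC vs. CS and 0 to 3 among groups, the highest each without MC 16, and was 0 in CS vs. SS, MC vs. MS and the interaction. In CS vs. SS the log2 fold change ran from −0.13 (without CS 9) to 0.72 (without SS 12) for miR-219a-5p, −0.33 (without SS 14) to 0.69 for miR-219a-2-3p, 0.05 to 0.68 for miR-338-3p and 0.30 to 0.53 for miR-338-5p. In MS vs. SS it ran from 0.07 to 0.82, −4.16 to −0.75, 0.06 to 0.51 and 0.15 to 0.32 in the same order. In MC vs. CS it ran from −0.81 to 0.12, −1.17 to 0.57, −0.93 to −0.02 and −0.36 to 0.38. In MC vs. MS it ran from −0.88 to 0.03, 0.35 to 4.37, −0.73 to 0.16 and −0.14 to 0.61. The interaction ran from −1.13 to −0.12, 0.22 to 4.19, −1.09 to −0.16 and −0.54 to 0.18. The exact permutation p ran from 0.417 to 0.954 for the miR-338 arms, 0.2 to 0.686 for the miR-219a arms and 0.353 to 0.911 for miR-338-3p over miR-219a-5p. Of 240 member values so obtained, 12 changed sign and 0 passed the threshold.

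Of 32 other expressions of the levels, 11 were counted as moved by more than 1 SD, all with miRNA counts as denominator. Not in that tally, miR-338-5p in SS also moved by more than 1 SD in TMM-normalised CPM (10.1, 11 and 10.1, against 9.31 ± 0.382 CPM). Of the 5 miRNAs closest to each member, 3 remained for miR-219a-5p, 2 for miR-219a-2-3p, 3 for miR-338-3p and 3 for miR-338-5p when group means were not subtracted, and 5, 4, 5 and 2 with TMM-normalised CPM. miR-338-5p had the fewest counts of the members (75 to 176). With all libraries in the fit, groups of 3 pooled libraries left intervals of over 1 log2 unit on each side for miR-219a-5p, miR-219a-2-3p and miR-338-3p. Without MC 16, the CS vs. SS intervals were narrower for miR-219a-5p (−0.73 to 1.03) and miR-338-3p (−0.31 to 0.94), from the same SS and CS libraries. For miR-219a-2-3p the interval was then −2.77 to 3.03. The part of group size in these widths was not tested.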

Other observations

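The RefSeq pairs on opposite strands do not include those of miR-219a-2-3p or miR-3065-3p, which have no sequence there. Of the 16 pairs on opposite strands with at least 100 summed counts in each library, 1 had a share that varied widely. Its lesser partner reached 10% of the sum in some libraries and was under 1% in others, and it is named after its values were seen. miR-3074-5p, which faces miR-24-3p, had 3406, 18176 and 29939 counts in SS, 3115, 3420 and 5564 in CS, 6, 13409 and 7 in MS, and 3294, 15 and 4276 in MC. Its share of the sum had a lowest value of 0.00982%, a median of 11.3% and a highest of 17.6%. Its low libraries were MS 3, MS 23 and MC 17, of which MS 23 was also among the 4 with little miR-219a-2-3p.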
